A study of Mus musculus with 2 samples.

Results

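Kinesins are motor proteins that use ATP to move along microtubules or to take them apart at their ends. Some carry vesicles, organelles and mRNA through the cytoplasm, while others build the mitotic spindle, hold chromosomes on it and complete cell division; dividing lymphocytes rely on the mitotic members in every division. The members described here are the protein-coding genes of the deposited mouse table whose symbol starts with Kif or Kifc followed by a digit in GENCODE M21. There were 43 of them among 21858 protein-coding genes and 51638 gene symbols in all. Of these, 42 encode motors and 1, Kif1bp, encodes a protein that binds kinesins and takes no step itself. Another 4 symbols of the same form, the antisense RNA Kif16bos and the pseudogenes Kif22-ps, Kif4-ps and Kifc5c-ps, were not members, and all 4 were listed at 0 in both libraries.

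The study sequenced RNA of CH12F3, a B cell lymphoma line of the mouse in which antibody class switching is often studied, and of CH12F3 cells labelled Lig4-/-, which stands for loss of DNA ligase IV, an enzyme that seals broken chromosome ends. The labels give no treatment for either group, both were grown in RPMI medium with 10% serum, and they do not say whether the Lig4-/- line is 1 clone. Each group had 1 library, so no spread and no test between groups could be had, and every difference below describes 2 libraries. Differences between lines, cultures and library preparations cannot be told apart.

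The deposited values are FPKM, fragments per length of transcript and number of mapped fragments. They summed to 1020856 for CH12F3 and to 962435 for the library labelled Lig4-/-, and read depth is unknown, so no value carries a counting interval. Lig4 itself was at 0.13 FPKM in CH12F3, against 0.64 for the library labelled Lig4-/-, so its level did not check the label, and every direction rests on the label alone. All 9 B cell markers looked up were at 1 FPKM or more in both libraries. Markers of other cells reached 1 FPKM in both for 2 of 6 T cell, 2 of 5 myeloid and 0 of 5 fibroblast genes, and Cd14, Dcn, Col3a1 and Pdgfra were at 0 in both. In CH12F3 these lists summed to 10.5, 5.25 and 0.31 FPKM, against 7.49, 9.77 and 0.14 for the library labelled Lig4-/-, and their part in the results was not tested. The log2 ratio used below is log2 of (FPKM + 1) in the library labelled Lig4-/- over (FPKM + 1) in CH12F3, which makes differences between low values look smaller. Folds below are on that scale, so that 2-fold is a log2 ratio of 1 or -1. Genes with a mean of at least 1 FPKM over both libraries are called expressed. Over 11422 expressed genes the median log2 ratio was 0.17, and 21.0% were higher by 2-fold or more for the library labelled Lig4-/- and 4.09% were lower by that much. With the median set to 0 these shares were 16.3% and 6.82%, and 6 kinesins, all but Kif16b of the 7 named below, were past 2-fold. At a 4-fold threshold they were 3.12% and 0.753%, and 4 members, Kif5b, Kif11, Kif15 and Kif20b, were past it on the higher side.

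Of the 43 kinesin-family genes, 31 were expressed, 7 were higher by 2-fold or more for the library labelled Lig4-/- and none was lower by as much. The 7 were the spindle motors Kif11, Kif15 and Kif18a, the cytokinesis motor Kif20b, the microtubule depolymerase Kif2a, the cargo motor Kif5b and the endosome motor Kif16b. They made up 22.6% of the expressed members, close to the 21.0% over all expressed genes, and the members' median log2 ratio was 0.32. A filter on the mean favours genes that are high in 1 library. Kif20b, Kif18a, Kif16b, Kif13a and Kif5c passed it only through the library labelled Lig4-/-, no member passed only through CH12F3, and these counts are therefore descriptions. Among the 26 members with at least 1 FPKM in both libraries, 4 were past 2-fold on the higher side and none on the lower, against 18.4% and 3.47% of all genes kept by the same requirement.

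**Figure D1:**
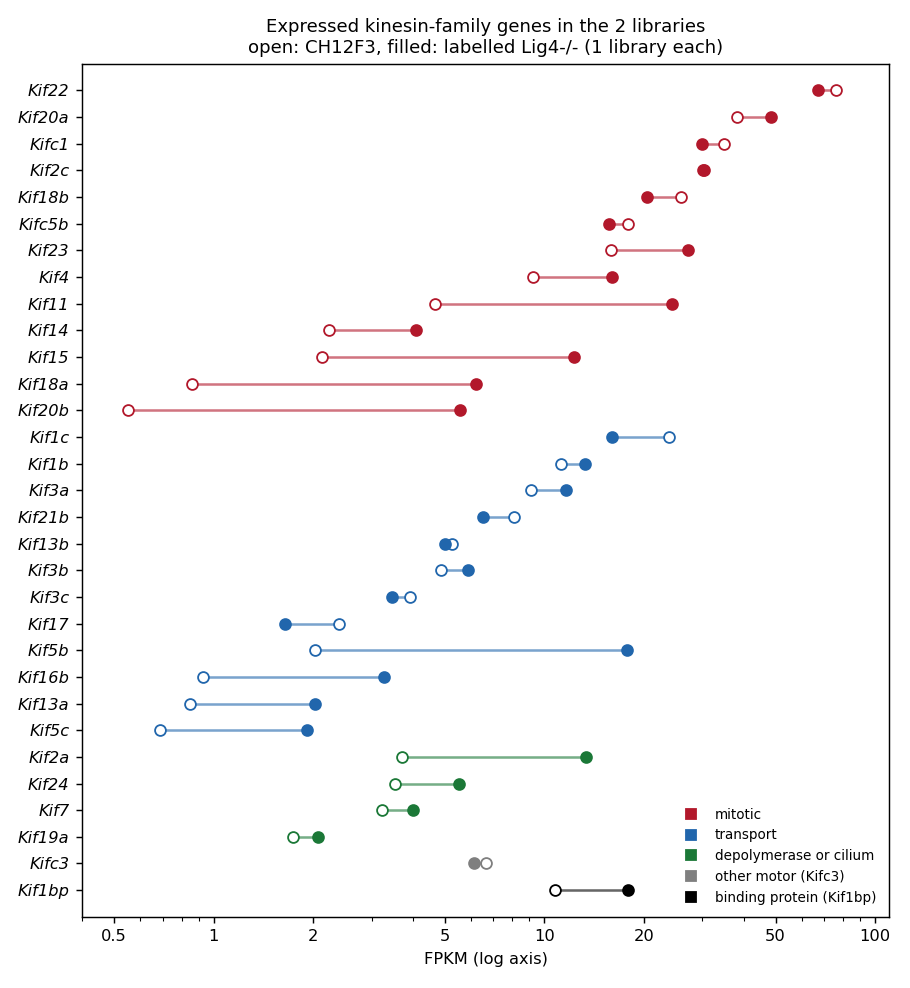
FPKM of the 31 expressed kinesin-family genes on a log axis, 1 row a gene, with an open circle for CH12F3 and a filled circle for the library labelled Lig4-/- (1 library each, no error bars). The long lines to the right belong to Kif5b, Kif20b, Kif18a, Kif15, Kif11, Kif2a and Kif16b, while Kif22, the most abundant, went from 76.2 to 67.1.

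The motors of mitosis came first in level. All 13 mitotic members were expressed, and together they held 73.6% of the summed FPKM of the 42 motors in CH12F3, against 71.8% for the library labelled Lig4-/-. Of the 13, 4 were at least 2-fold higher in the latter, none was at least 2-fold lower, and the median log2 ratio was 0.65, where 21.0% and 4.09% of all expressed genes were past 2-fold and their median was 0.17. After the GC adjustment described below, 0 of the 13 were past 2-fold. With that adjustment 5.50% of all genes were past 2-fold on the higher side and 5.32% on the lower. The 4 had between 0.55 and 4.66 FPKM in CH12F3, and the other 9 between 2.23 and 76.2.

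Kif11 is the kinesin-5 motor that slides antiparallel spindle microtubules apart and so sets up a bipolar spindle. It was at 4.66 FPKM in CH12F3, against 24.3 FPKM for the library labelled Lig4-/-, a log2 ratio of 2.16. Kif15, a kinesin-12 motor that helps hold the spindle bipolar and can stand in for Kif11 in part, was at 2.12 and 12.3 FPKM (log2 ratio 2.09). Both partners of spindle bipolarity were thus higher by a similar factor, and Kif15 stood at 0.455 of the FPKM of Kif11 in CH12F3 and 0.505 of it in the other library. Their transcripts are also alike in GC content, at 42.2% for Kif11 and 42.7% for Kif15. After the GC adjustment described below both were at 0.96.

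The kinesin-8 motors damp the movements of microtubule plus ends, Kif18a at the ends that hold chromosomes and Kif18b at those that reach the cell cortex. Kif18a was at 0.86 FPKM in CH12F3, against 6.19 for the library labelled Lig4-/- (log2 ratio 1.95). Kif18b was at 25.8 and 20.4 FPKM (log2 ratio -0.33). These relatives thus lay on opposite sides of 0 as deposited. The FPKM of Kif18b was 30.01 times that of Kif18a in CH12F3 but 3.29 times in the library labelled Lig4-/-. Kif18a passed the expression filter only through the latter library. After the GC adjustment described below Kif18a was at 0.36 and Kif18b at -0.09. With the median of the 200 genes nearest in GC content subtracted instead, Kif18b was at 0.05.

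The kinesin-6 motors act at the central spindle in late mitosis, where Kif20a brings in the Aurora B complex, Kif23 forms centralspindlin with Racgap1, and Kif20b serves the last steps of abscission. Kif20b was at 0.55 FPKM in CH12F3, against 5.55 for the library labelled Lig4-/- (log2 ratio 2.08). Kif20a was at 38.1 and 48.4 FPKM (0.34), and Kif23 at 15.9 and 27.2 FPKM (0.74). Only Kif20b of these 3 was past 2-fold. Exons of Kif20a overlap those of Cdc23 on the other strand over 29.3% of their length. Cdc23 was at 21.7 and 24.9 FPKM, and without a stated strand setting reads there could have been given to either gene.

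The remaining mitotic motors lay within 2-fold. The chromokinesins, which sit on chromosome arms, were Kif22 at 76.2 FPKM in CH12F3, against 67.1 for the library labelled Lig4-/- (log2 ratio -0.18), and Kif4 at 9.26 and 16.0 FPKM (0.73). Kif4 shares 15.1% of its exonic bases with Pdzd11 on the other strand, which was at 45.7 and 40.6 FPKM. Kif14, which works with citron kinase in cytokinesis, was at 2.23 and 4.08 FPKM (0.65).

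Kif2c, the depolymerase at centromeres, was at 30.2 and 30.4 FPKM (log2 ratio 0.01), the log2 ratio nearest to 0 among expressed members. The minus-end motor Kifc1, which focuses spindle poles, was at 34.9 and 29.9 FPKM (-0.22), and its near copy Kifc5b at 17.8 and 15.7 FPKM (-0.17). Of the stretches of 50 bases in the Kifc1 transcript, 45.8% also occur in Kifc5b, so reads could have been divided between them in either direction. Their FPKM kept nearly the same proportion in both libraries, 0.511 and 0.525 of Kifc5b to Kifc1.

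The depolymerase Kif2a, a relative of Kif2c that acts at spindle poles and in postmitotic cells, was at 3.70 FPKM in CH12F3, against 13.4 FPKM for the library labelled Lig4-/- (log2 ratio 1.62). Kif2c exceeded it 8.15-fold in CH12F3, against 2.27-fold for the other library. Exons of Kif2a overlap those of Dimt1 on the other strand over 19.2% of their length, and Dimt1 was itself at 2.05 and 9.08 FPKM, so reads of these genes could have been exchanged.

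The coding stretches around the ATP-binding P-loop show how these relatives differ in base composition at a site whose function they share. They were read from GENCODE M21 transcripts on GRCm38, each covering the 8 codons of the P-loop and 10 codons on either side, and capitals mark each G or C at the third position of a codon. The stretches, all exonic, lie at chr19:37384614-37384789 (plus strand, exons 3 to 4) for Kif11, chr9:122963528-122971705 (plus, exons 4 to 6) for Kif15, chr2:109288148-109289743 (plus, exons 2 to 3) for Kif18a and chr11:102915636-102916207 (minus, exons 2 to 3) for Kif18b. Those of Kif20b lie at chr19:34929756-34931571 (plus, exons 5 to 6), of Kif2a at chr13:106979009-106979533 (minus, exons 10 to 11) and of Kif2c at chr4:117167086-117167350 (minus, exons 11 to 12). Introns within these spans are not shown.
Kif11: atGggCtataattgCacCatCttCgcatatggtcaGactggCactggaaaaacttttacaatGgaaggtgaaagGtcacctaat
Kif15: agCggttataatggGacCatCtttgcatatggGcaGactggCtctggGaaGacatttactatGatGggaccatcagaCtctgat
Kif20b: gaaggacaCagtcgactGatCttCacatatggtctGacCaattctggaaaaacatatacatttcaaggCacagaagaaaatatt
Kif18a: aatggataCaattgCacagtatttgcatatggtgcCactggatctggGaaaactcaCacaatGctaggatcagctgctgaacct
Kif18b: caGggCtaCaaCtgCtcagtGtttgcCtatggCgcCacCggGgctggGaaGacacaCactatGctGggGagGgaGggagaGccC
Kif2a: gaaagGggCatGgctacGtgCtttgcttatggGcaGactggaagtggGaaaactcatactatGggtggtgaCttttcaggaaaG
Kif2c: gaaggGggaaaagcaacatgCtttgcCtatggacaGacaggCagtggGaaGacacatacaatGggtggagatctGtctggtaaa

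Of the 28 codons shown, 6 end in G or C in Kif18a and 21 in Kif18b, 7 in Kif20b, 10 in Kif11 and 12 in Kif15. With the stretches not shown included, members past 2-fold had from 6 in Kif18a to 12 in Kif15. Expressed members within 2-fold had from 8 in Kif5c to 24 in Kif1c, so low counts were not particular to the former. In this short stretch Kif2a, with 11, and Kif2c, with 9, lie close together, unlike Kif18a and Kif18b. Over the whole coding region, the GC content of the third position was 37.6% in Kif2a and 59.2% in Kif2c, 34.99% in Kif18a and 66.5% in Kif18b, and 39.9% in Kif11.

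Kinesins of cytoplasmic transport were less abundant. Of 15 such members 12 were expressed, and they held 20.8% of the motor FPKM in CH12F3, against 20.7% for the library labelled Lig4-/-. Of the 12, 2 were at least 2-fold higher in the latter and none was at least 2-fold lower, with a median log2 ratio of 0.23, beside the same 21.0%, 4.09% and 0.17 over all expressed genes.

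Kif5b is the kinesin-1 heavy chain found in most cells, which moves mitochondria, lysosomes and other cargo outward. It was at 2.03 FPKM in CH12F3, against 17.8 FPKM for the library labelled Lig4-/-. Its log2 ratio of 2.63 was the highest of the family and 65th from the top among all 11422 expressed genes. The neuronal heavy chains were scarce, with Kif5c at 0.69 and 1.92 FPKM (log2 ratio 0.79) and Kif5a under the expression threshold at 0.06 and 0.08 FPKM. The kinesin-1 light chains, which bind cargo, lay on the other side as deposited. Klc1 was at 39.1 and 33.7 FPKM, Klc2 at 8.81 and 7.48, Klc4 at 14.9 and 6.76 and Klc3 at 1.87 and 0.39. All 4 were lower in the library labelled Lig4-/-, and Klc4 and Klc3 were at least 2-fold lower (log2 ratios -1.03 and -1.05). Of all 11422 expressed genes, 4756 had a log2 ratio below 0 and 4.09% were at least 2-fold lower. After the GC adjustment described below, Klc4 and Klc3 were at -0.66 and -0.59, while Klc1 and Klc2 were above 0 at 0.07 and 0.19. Kif5b was at 1.31 after it.

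Kinesin-2, which carries cargo in cilia and elsewhere, consists of Kif3a with Kif3b or Kif3c. Kif3a was at 9.12 and 11.6 FPKM (log2 ratio 0.32), Kif3b at 4.86 and 5.89 (0.23) and Kif3c at 3.91 and 3.47 (-0.14). All 3 were within 2-fold, and Kif3a had 1.88 times the FPKM of Kif3b in CH12F3 and 1.97 times in the other library. Kifap3, the subunit that joins the Kif3a and Kif3b motors to cargo, was at 0.03 and 0.02 FPKM, far under either motor. Exons of Kif3c overlap the antisense gene 1110002L01Rik over 35.3% of their length, and that gene was at 4.35 and 16.8 FPKM. Kif17, a kinesin-2 motor that works as a homodimer, was at 2.39 and 1.64 FPKM (-0.36).

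The kinesin-3 motors carry vesicles and endosomes over long distances. Kif16b, which moves early endosomes, was at 0.93 FPKM in CH12F3, against 3.27 for the library labelled Lig4-/- (log2 ratio 1.15), just past 2-fold. Kif13a was at 0.85 and 2.03 FPKM (0.71), whereas its relative Kif13b was at 5.25 and 5.02 (-0.05), although their transcripts have the same GC content of 52.5%. Kif1b was at 11.2 and 13.3 FPKM (0.23). Kif1c had the lowest log2 ratio of the family, -0.54, at 23.8 FPKM in CH12F3, against 16.0 for the other library, and was the most abundant transport kinesin in CH12F3. In the library labelled Lig4-/- Kif5b, at 17.8 FPKM, was above it. Outside the kinesin-3 subfamily, Kif21b, a motor that restrains microtubule growth, was at 8.08 and 6.54 FPKM (-0.27).

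Of 8 members that depolymerise microtubules or are known from cilia, with Kif2a among them and Kif2c counted as mitotic, 4 were expressed. Of these 4, 1, Kif2a, was at least 2-fold higher for the library labelled Lig4-/-, beside 21.0% of all expressed genes. The median log2 ratio of the 4 was 0.39, and 0.55 after the GC adjustment. Over all expressed genes these medians were 0.17 and -0.02. Kif7, a regulator of Hedgehog signalling at the tip of the cilium, was at 3.22 and 4.0 FPKM. Kif24, a centriolar depolymerase that holds back cilium assembly, was at 3.53 and 5.53 FPKM, and Kif19a, which limits cilium length, at 1.74 and 2.07 FPKM. Their log2 ratios were 0.24, 0.53 and 0.16, all above 0 and within 2-fold, although with the overall median of 0.17 set to 0 Kif19a lies just under 0. Of all 11422 expressed genes, 6656 had a log2 ratio above 0. Kifc3, a minus-end motor, was at 6.66 and 6.11 FPKM (-0.11). Kif1bp was at 10.8 and 17.9 FPKM (0.68).

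The other 12 members were below the expression threshold, with no single value above 0.80 FPKM. Kif6, Kif12, Kif21a, Kif27 and Kif2b were listed at 0 in both libraries. Kif9, a motor of motile cilia, came nearest to the threshold at 0.50 and 0.80 FPKM, a mean of 0.65, while Kif5c, with a mean of 1.31, was the expressed member closest to it. Kif1a, Kif5a, Kif26a, Kif26b, Kif28 and Kifc2 were each at 0.22 FPKM or less. No fold is given for genes at these levels.

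Transcript base composition moved with the log2 ratio across the family. The 6 members whose transcript has a GC content under 45% were Kif18a (38.3%), Kif20b (39.4%), Kif5b (41.1%), Kif11 (42.2%), Kif15 (42.7%) and Kif2a (43.2%), and all 6 were 2-fold higher or more for the library labelled Lig4-/-. Of the 25 expressed members with a higher GC content, 1 was, Kif16b at 49.0%. The split at 45% was chosen after the values were seen. Among all expressed genes, 60.9% of those under 45% were 2-fold higher or more and 0.950% 2-fold lower or more. Of the others, 10.3% and 4.93% were. Over the 31 expressed members Pearson's r of log2 ratio with transcript GC content was -0.85 and Spearman's rho -0.85, and over all 11404 expressed genes with a GC content they were -0.60 and -0.65. These are descriptions across genes that share both libraries. Transcript length did not show such a relation over the 31 members (rho 0.14), although among the 13 mitotic members it was 0.69, beside -0.92 for GC content.

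**Figure D2:**
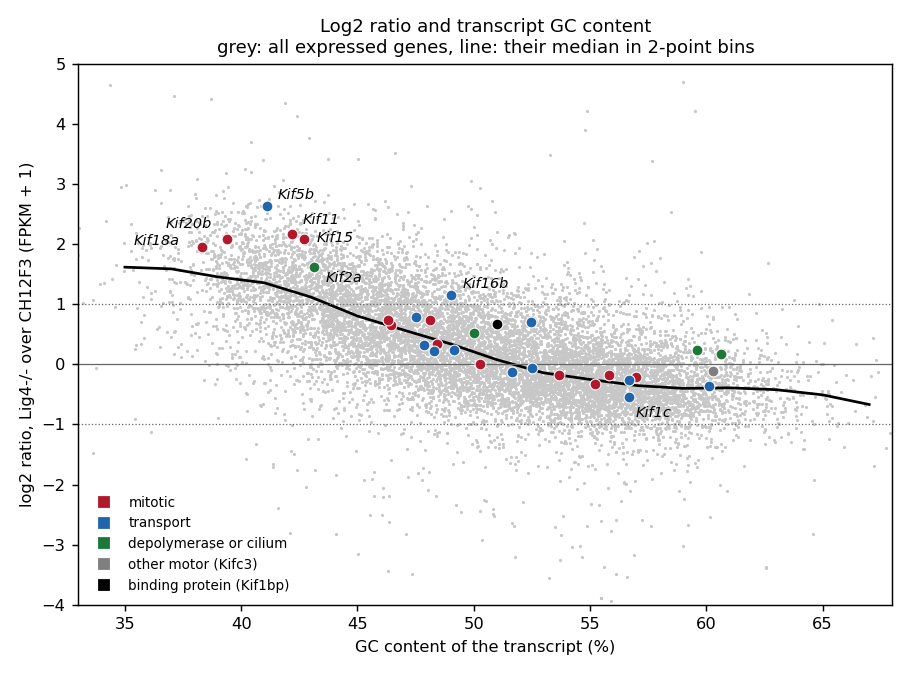
Log2 ratio of FPKM + 1, the library labelled Lig4-/- over CH12F3, against the GC content of the transcript in percent. Coloured points are the 31 expressed kinesin-family genes by role, grey points all expressed genes with 49 outside the axes, the black line their median in bins of GC content, and dotted lines mark 2-fold. All 6 members under 45% GC lie above the upper dotted line, from Kif18a at 38.3% to Kif2a at 43.2%, and Kif1c, at 56.7%, is lowest.

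Subtracting a smooth curve of log2 ratio on transcript GC content, fitted over all expressed genes, left 1 member past 2-fold. Kif5b was at 1.31 after the adjustment, with 5.50% of all genes past 2-fold on the higher side and 5.32% on the lower. Kif11 and Kif15, at 0.96 each, lay just inside 2-fold, followed by Kif16b at 0.82, Kif20b at 0.59, Kif2a at 0.54 and Kif18a at 0.36. All 7 had a value above 0, but they were picked for a log2 ratio of 1 or more, which favours such values. Kif20b, Kif18a and Kif16b also passed the expression filter only through the library labelled Lig4-/-, so these values are descriptions. With the median of the 200 genes nearest in GC content subtracted instead, Kif5b was again the 1 member past 2-fold, beside 5.84% of all genes on the higher side and 5.34% on the lower. The 200 expressed genes nearest to Kif5b in GC content had a median log2 ratio of 1.29, those nearest to Kif11 1.23, to Kif15 1.13 and to Kif18a 1.59. The adjusted median was 0.10 for the mitotic and 0.01 for the transport members, and the 4 members with the highest transcript GC content, Kif19a, Kifc3, Kif17 and Kif7, came out at 0.57, 0.29, 0.03 and 0.63.

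**Figure D3:**
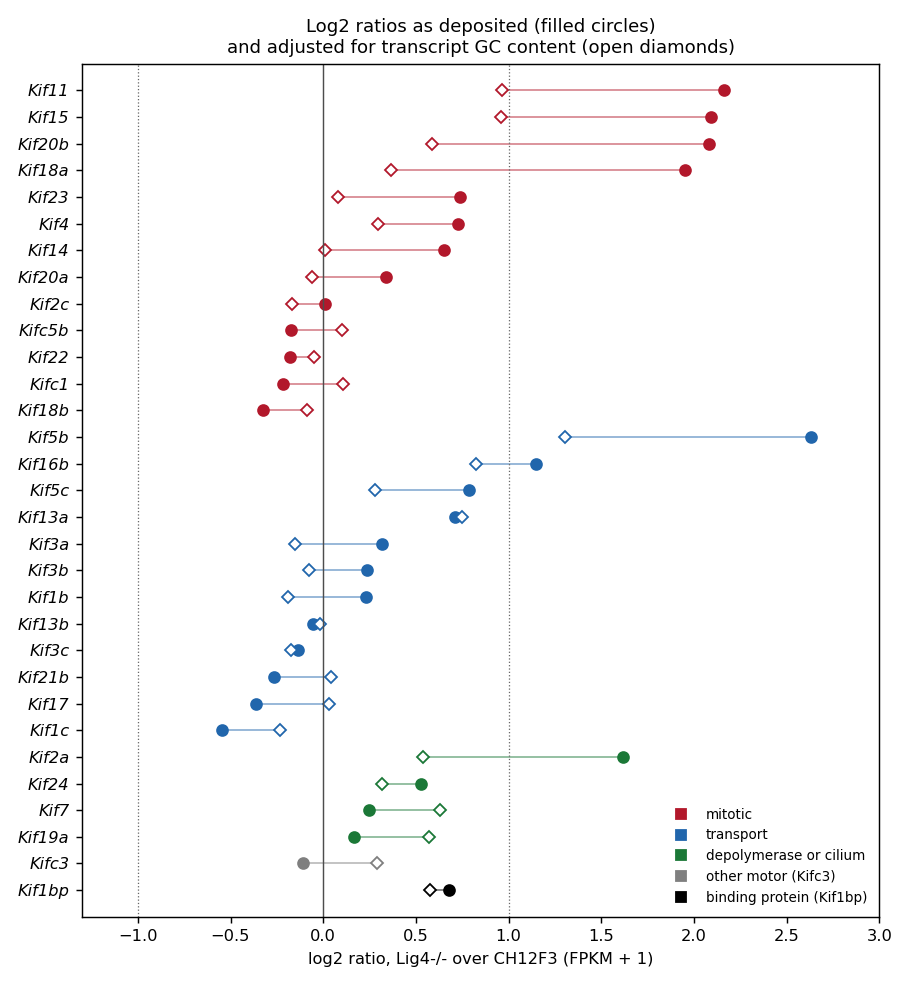
Log2 ratios of the 31 expressed kinesin-family genes as deposited (filled circles) and after subtraction of the GC curve (open diamonds), by role, with dotted lines at 2-fold. The circles of Kif11, Kif15, Kif20b, Kif18a, Kif5b, Kif16b and Kif2a lie past 1, and of the diamonds that of Kif5b, at 1.31.

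Relatives within a subfamily can be set side by side on the same measure. The log2 ratio of Kif18a exceeded that of Kif18b by 2.28 as deposited and by 0.45 after GC adjustment, with a GC content 16.9 percentage points lower (a difference of -16.9). Kif20b exceeded Kif20a by 1.74 and 0.65, and Kif2a exceeded Kif2c by 1.60 and 0.71. Kif5b exceeded Kif5c by 1.84 and 1.03. Other pairs lay close after the adjustment. Kif1b exceeded Kif1c by 0.77 as deposited and by 0.04 adjusted, and Kif3a exceeded Kif3c by 0.45 and 0.02. Kif3a and Kif3b differed by 0.08 and -0.08. Kif13a exceeded Kif13b by 0.77, and since their GC contents are nearly equal the adjustment could hardly alter that. Of the genes in these pairs, Kif13a, Kif18a, Kif20b and Kif5c passed the expression filter only through the library labelled Lig4-/-. These pairs are relatives within a subfamily and were chosen after the values were seen.

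The promoters of the 4 mitotic members at least 2-fold higher are shown because genes of late mitosis are often controlled through CCAAT boxes and a cell cycle element read as TTTGAA. They are RefSeq promoters on GRCm38.p6, cut to 120 bases before and 30 bases from the transcription start, with both motifs in capitals. CCAAT reads ATTGG when it lies on the other strand. The cell cycle element TTTGAA then reads TTCAAA. Kif11 lies at chr19:37376262-37376411, Kif15 at chr9:122950961-122951110, Kif18a at chr2:109280618-109280767 and Kif20b at chr19:34922238-34922387, all on the plus strand.
Kif11: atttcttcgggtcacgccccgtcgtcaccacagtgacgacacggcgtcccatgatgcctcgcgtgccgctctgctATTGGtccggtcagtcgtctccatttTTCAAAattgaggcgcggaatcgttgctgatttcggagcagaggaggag
Kif15: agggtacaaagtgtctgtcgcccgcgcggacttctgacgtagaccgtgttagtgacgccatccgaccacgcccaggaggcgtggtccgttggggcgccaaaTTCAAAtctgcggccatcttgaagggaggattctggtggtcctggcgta
Kif20b: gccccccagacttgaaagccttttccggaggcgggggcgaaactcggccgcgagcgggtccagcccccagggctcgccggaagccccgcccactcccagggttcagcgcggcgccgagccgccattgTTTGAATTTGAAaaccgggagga
Kif18a: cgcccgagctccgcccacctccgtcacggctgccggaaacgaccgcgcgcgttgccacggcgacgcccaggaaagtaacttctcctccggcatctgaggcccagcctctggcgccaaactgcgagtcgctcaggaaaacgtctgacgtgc

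TTCAAA begins at position -19 in both Kif11 and Kif15, and Kif20b holds TTTGAA at positions 8 and 14, side by side without overlap. Kif11 also has ATTGG at position -45. Searched over the full window of 250 bases before to 50 after the start, 3 of these 4 promoters held the TTTGAA motif and 1 held CCAAT. Among the 8 mitotic members within 2-fold that have a promoter in the table, 8 held TTTGAA and 7 held CCAAT, and among 9 expressed transport members 0 held TTTGAA and 3 held CCAAT. Over all 32851 promoters of that length, 17.9% held TTTGAA, 37.4% CCAAT and 6.95% both. TTTGAA was thus in most mitotic promoters on either side of 2-fold, while CCAAT was in most of those within 2-fold and in 1 of the 4 past it. A match describes the sequence and not a binding site. RefSeq promoters were matched for 33 of the 43 members.

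The partners of the kinesins outside the symbol rule were described from a list of 27 genes, of which 25 were expressed. Of these, 10 were 2-fold higher or more, and 2 lower by as much, for the library labelled Lig4-/-, with a median log2 ratio of 0.44, against 21.0% and 4.09% of all expressed genes. After GC adjustment 2 were past 2-fold on the higher side, 0 on the lower, and the median was 0.19. Of all genes, 5.50% were past 2-fold on the higher side after that adjustment and 5.32% on the lower. The highest were Hmmr, a spindle assembly factor, at 4.29 and 43.6 FPKM (log2 ratio 3.07, GC-adjusted 1.83), and Ect2, which centralspindlin recruits for cytokinesis, at 4.45 and 26.7 FPKM (2.34, GC-adjusted 0.93). The lowest were the light chains Klc3 and Klc4. Cenpe, the kinesin-7 motor of kinetochores that the symbol rule leaves out, was at 3.89 and 15.0 FPKM (1.71, GC-adjusted 0.60, transcript GC content 42.9%).

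Partners that bind a given motor did not always lie on its side. Racgap1, which forms centralspindlin with Kif23, was at 115 and 71.0 FPKM (-0.68 on the log2 scale, GC-adjusted -0.88), while Kif23 was at 15.9 and 27.2 (0.74, GC-adjusted 0.08). Prc1, which brings Kif4 to the central spindle, was at 13.7 and 31.0 FPKM (1.13, GC-adjusted 0.37 and no longer past 2-fold) beside Kif4 at 9.26 and 16.0 (0.73, GC-adjusted 0.29). Tpx2, a regulator of Kif11 on the spindle, was at 69.9 and 75.3 FPKM (0.11, GC-adjusted -0.37). Trak1, the adaptor that links kinesin-1 to mitochondria, was at 173 and 397 FPKM (1.19, GC-adjusted 1.38), on the same side as Kif5b. Whether any of these pairs differ in their log2 ratio beyond library error was not tested.

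**Figure D4:**
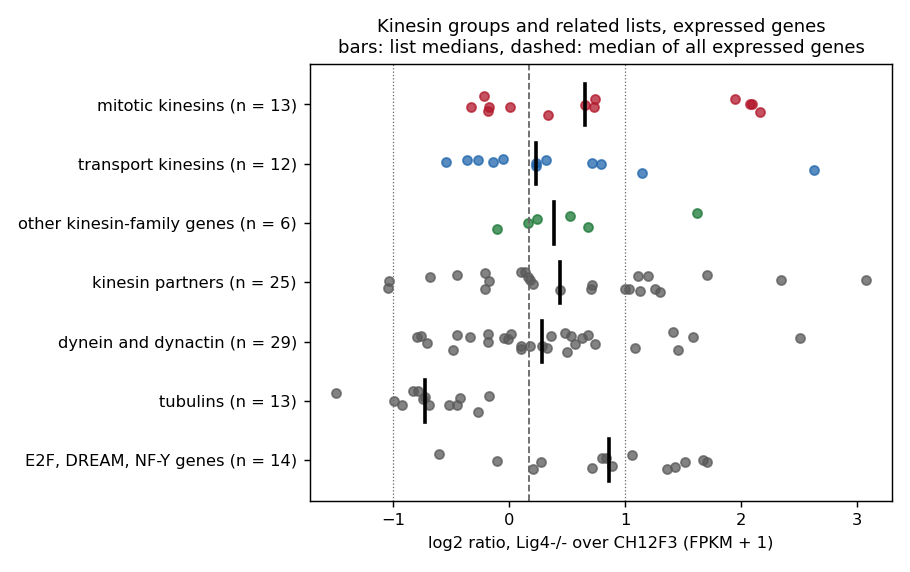
Log2 ratios of expressed genes, the library labelled Lig4-/- over CH12F3, for the kinesin groups and 4 related lists, 1 point a gene, with a bar at each median, a dashed line at the median of all expressed genes (0.17) and dotted lines at 2-fold. Mitotic kinesins split into 4 points near 2 and 9 between -0.33 and 0.74, and all 13 tubulins lie below 0 (11 of them after GC adjustment). Of all 11422 expressed genes 4756 were below 0, and after GC adjustment 5838 of 11404 were.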

How the data were processed

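The authors deposited FPKM values for 53873 features in CH12F3 cells and CH12F3 cells labelled Lig4-/-, with 1 library each. Per the labels' protocols, 5 µg of Trizol-extracted RNA went into TruSeq libraries. CASAVA, TopHat and the human build GRCh38 are named, per the submitters' processing notes, whereas 51912 features carry mouse Ensembl identifiers. The sources used here do not give the program that computed FPKM, its annotation or its strand setting. Another 1961 features are assembled loci without a gene name (2.26% and 3.21% of the FPKM sums), and reads of members held there were not used here.

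GENCODE M21 named 51719 identifiers. For a symbol with several identifiers, that of highest mean FPKM was used. GC content and length are those of the transcript with the longest complete coding region, or the longest transcript of noncoding genes. The GC curve was a lowess fit (fraction 0.3, statsmodels 0.14.6, Python 3.11.15) over 11404 expressed genes, tested on simulated data. Values near whole read steps were sought in short pseudogenes. At the best step 30.2% and 29.7% lay within 0.1 of a whole multiple, where a fixed step gives 20% by chance, so depth is unknown. No p-value was computed, since each group has 1 library.

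Members, roles, lists, settings and the naming rule were chosen with earlier results of these data known. All members are accounted for, and of the partner lists the 2 highest and 2 lowest are named. Tuba1b, Tubb5, Dync1h1 and E2f4 are named beyond that rule. Klc1, Klc2, Kifap3, Cenpe, Racgap1, Prc1, Tpx2 and Trak1, the pairs, the 45% split and the P-loop stretches were chosen after values were seen.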

Additional observations from a re-analysis of the deposited data

How the results depend on the processing

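No paired analysis was possible because each group has 1 library, and for the same reason no replicate could be left out. The count of 7 members at least 2-fold higher was 4 with a pseudocount of 5 FPKM, 4 with a mean of at least 5 FPKM, 4 at a 4-fold threshold and 4 with at least 1 FPKM in both libraries. With a pseudocount of 0.1 FPKM it was 9, with Kif13a and Kif5c added. It was 1 after the lowess GC adjustment, 1 with the median of the 200 genes nearest in GC content subtracted, 3 after a linear adjustment for GC content and length and 3 with the GC content of the longest transcript. No setting put a member at least 2-fold lower. The share of all expressed genes past 2-fold was not computed for the pseudocounts, the mean of at least 5 FPKM, the linear adjustment or the longest transcript. Whether the members' counts moved differently from those of all genes under these settings was therefore not tested. Settings without Kif1bp, without Kifc1 and Kifc5b, with at least 1 FPKM in both libraries and with the longest transcript were added after the data were seen. The members' median log2 ratio of 0.32 was 0.15 with the overall median set to 0, 0.15 without an expression filter, 0.11 after the lowess and 0.11 after the linear adjustment, 0.17 with nearest genes and 0.17 with the longest transcript. The mitotic median of 0.65 was 0.77 and 0.33 with pseudocounts of 0.1 and 5 FPKM, 0.48 with the overall median set to 0, 0.17 with a mean of at least 5 FPKM, and 0.34 with at least 1 FPKM in both libraries. It was 0.10, 0.063, 0.11 and 0.11 after the lowess, linear, nearest-gene and longest-transcript adjustments. The transport median of 0.23 was 0.060 with the overall median set to 0, 0.11 without a filter, 0.0085, 0.025 and 0.036 after the lowess, nearest-gene and longest-transcript adjustments, and changed sign to -0.17 after the linear adjustment and to -0.054 with at least 1 FPKM in both libraries. Kif5b was at least 2-fold higher under every setting run on single members. Kif11 and Kif15 were too, except after the lowess and nearest-gene adjustments. Depth is unknown, so members near 1 FPKM, such as Kif20b, Kif18a and Kif16b, are the least certain. The cause of these shifts was not tested.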

Other observations

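The tracks and the other motor of microtubules were read from lists of the same kind. Of 15 tubulin genes 13 were expressed, and all 13 had a log2 ratio below 0, with a median of -0.73, where the median of all expressed genes was 0.17. Of all 11422 expressed genes, 4756 had a log2 ratio below 0. Tuba1b was at 1999.85 FPKM in CH12F3, against 1469.5 for the library labelled Lig4-/-, Tubb5 at 1199 and 674, and Tubb3, the 1 member at least 2-fold lower (4.09% of all expressed genes were), at 18.4 and 5.91 FPKM (log2 ratio -1.49). The highest were Tubb6 (-0.17) and Tuba1c (-0.27), and Tuba1a (-0.99) was next to Tubb3. After GC adjustment the median was -0.40, with 11 members below 0, and Tubb6 and Tuba1c above it at 0.14 and 0.02. Among the 11404 expressed genes with a GC content, 5838 were below 0 after that adjustment. Tubulin genes are close copies of each other, so single values are uncertain.

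A list of 32 genes held subunits of cytoplasmic dynein, the motor that walks the opposite way, and of dynactin, with their adaptors and regulators. Of these genes 29 were expressed, 5 were at least 2-fold higher and none at least 2-fold lower (median log2 ratio 0.28), against 21.0% and 4.09% of all expressed genes. After GC adjustment 0 were past 2-fold and the median was -0.08, where 5.50% of all genes were past 2-fold on the higher side and 5.32% on the lower. Dynlt3, a light chain, was at 1.83 and 15.1 FPKM (2.51, GC-adjusted 0.97) and Spdl1, which loads dynein on kinetochores, at 6.90 and 22.7 FPKM (1.58, GC-adjusted 0.88). Dctn2 and Actr1a, subunits of dynactin, were lowest at -0.79 and -0.76. The heavy chain Dync1h1 was at 35.3 and 27.8 FPKM (-0.33).

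Among 14 genes of the E2F, DREAM and NF-Y factors that control cell cycle genes, all were expressed and 6 were 2-fold higher or more for the library labelled Lig4-/- (median 0.86), against 21.0% of all expressed genes. After GC adjustment 2 were, E2f8 and E2f4, against 5.50% of all genes, and the median was 0.38. Lin54 was at 1.09 and 5.82 FPKM (1.71, GC-adjusted 0.46) and E2f8 at 2.11 and 8.90 FPKM (1.67, GC-adjusted 1.47). Mybl2, at 78.6 and 51.5 FPKM (-0.60), and E2f1, at 13.8 and 12.8 FPKM (-0.11), were lowest.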
